A study of Rattus norvegicus with 8 samples.

Results

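The subunits of the nicotinic acetylcholine receptor were followed in the dentate gyrus of ovariectomized adult female Sprague-Dawley rats that had gone through kainic acid seizures. The members were the 10 genes Chrna1, Chrna3, Chrna4, Chrna5, Chrna7, Chrnb1, Chrnb2, Chrnb4, Chrnd and Chrne, taken as the non-control spots that carried one of these gene names, out of 35199 gene names on the array. They were chosen from a comparison of these same rats, so their differences between the groups are given as a description, with no p-value. Group AO (named COS in the study) comprised 4 rats that received oil, and group AE (CES) comprised 4 rats that received estradiol benzoate (EB in the labels). According to the labels, estradiol was given as 4 doses of 2 µg every 24 h, 2 of them before and 2 after status epilepticus, which was induced in both groups with 16 mg/kg kainic acid and ended after 5 h with pentobarbital. The methods of the study differ from the labels in the dose of kainic acid, in the drug that ended the seizures and in placing all injections before the seizures. The labels give no time of tissue collection. The methods give 24 h after status epilepticus in one place and, for the arrays, 2 h after continuous seizures began. The timing of treatment and sampling is therefore not settled. No rat without seizures was analysed here, and the comparison asks how estradiol replacement changed transcript levels in seizured rats. Each of the 4 arrays carried 2 rats of the same group, odd-numbered rats in Cy3 and even-numbered rats in Cy5.

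Nicotinic receptors are cation channels built as a ring of subunits and opened by acetylcholine. In brain the most common forms are the heteromer of alpha4 and beta2, often with the accessory alpha5 subunit, and the homomer of alpha7, which passes calcium and is known from hippocampal interneurons. The alpha3 and beta4 subunits form the receptor of autonomic ganglia and of the medial habenula, and alpha1, beta1 and delta combine with gamma in fetal muscle or with epsilon at the mature neuromuscular junction. Kainic acid is an agonist of glutamate receptors and a standard means of inducing status epilepticus.

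The probes that carried the readings differed in sequence. The 60-base oligonucleotides below show the probe behind the largest difference (Chrne), the 2 partners of the main brain heteromer (Chrna4 and Chrnb2), the most 5′ of the Chrna7 probes, and the Chrna3 probe, which shared its longest run with that of Chrna4. Capitals mark the longest run that each shares with the probe of another of the 10 genes.
Chrne: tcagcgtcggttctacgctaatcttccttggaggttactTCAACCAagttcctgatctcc
Chrna7, 5′ probe: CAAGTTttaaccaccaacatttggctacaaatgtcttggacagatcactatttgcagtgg
Chrna4: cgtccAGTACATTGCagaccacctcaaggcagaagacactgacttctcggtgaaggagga
Chrnb2: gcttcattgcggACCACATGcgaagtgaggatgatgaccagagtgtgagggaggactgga
Chrna3: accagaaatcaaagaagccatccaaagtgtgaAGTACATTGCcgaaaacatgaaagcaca
Among the 12 probes of the 10 genes the longest shared run was 10 bases, and that of the Chrne probe was 7 bases. On build rn4, named in the scanner files, the Chrne probe lies on the minus strand at chr10:57497308-57497367 and reads through in 1 open frame. The Chrna4 probe (chr3:170171576-170174943) and the Chrnb2 probe (chr2:181962034-181965748), both on the minus strand, span more genome than their own length and so cross introns, while the Chrna3 probe lies at chr8:58572596-58572655 on the minus strand. Chrna3, Chrna5 and Chrnb4 are neighbours, their probes lying within 20.7 kb of chromosome 8.

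Detection differed widely among the subunits. The scanner software marks a spot as well above background when its signal clearly exceeds the local background, and by this mark 1 subunit, Chrna7, was detected in all 8 rats, 8 in at least 1 rat and 2 (Chrnb1 and Chrnd) in none. Chrna4 was marked in 7 rats, all but AO3. Chrne was marked in all 4 AO rats and in AE2 and AE4, not in AE1 or AE3. Chrna5 was marked in AO2, AO4, AE1, AE2 and AE4. Chrnb2 was marked in AO2 and AE2, Chrnb4 in AE2 and AE4, and Chrna3 and Chrna1 in AE2 only. In the Cy3 rats 2 or 3 of the 10 genes carried the mark, and in the Cy5 rats 4 to 8, so detection and dye cannot be told apart between an odd-numbered and an even-numbered rat.

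**Figure D1:**
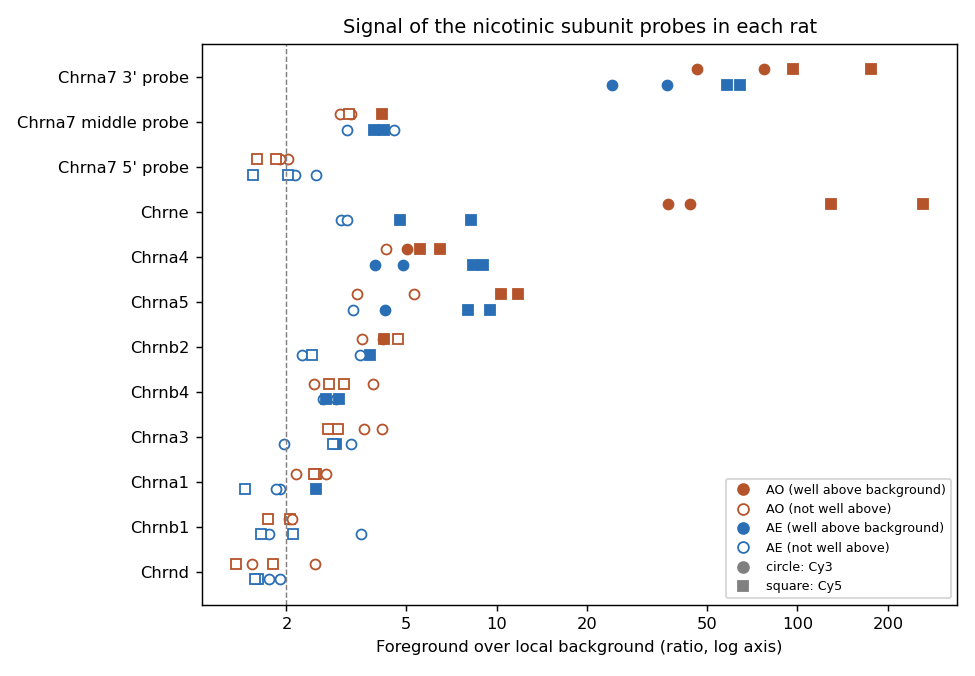
Foreground over local background (log axis) of each probe of the 10 genes in each of the 8 rats, the median being taken over the 10 spots of the Chrna7 3′ probe; filled symbols were marked well above background, circles are Cy3 and squares Cy5, and the dashed line is the validity limit of 2. Chrne and the 3′ probe of Chrna7 stand far above the other probes, and Chrne does so in the AO rats only (37 to 262 in AO, 3.04 to 8.21 in AE).

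Among the 10 genes, 6 had a spot with foreground at least 2 times background in all 8 rats and could be quantified: Chrna4, Chrna5, Chrna7, Chrnb2, Chrnb4 and Chrne. The filter asks for signal in both groups. Levels below are log2 values of the background-subtracted signal relative to the median valid spot of the same array and dye, so that 0 is the median spot, and a level is compared across rats and never between genes. Of the 6, 2 lay past the threshold of the fit over all genes (limma, adjusted p under 0.05) as lower in AE, namely Chrne and Chrna7, and 0 as higher, a count given as a description of the values by which they were chosen. Over all 21332 genes tested, 28.3% were called lower and 5.8% higher in AE. The same 2 subunits were those whose 4 AE values lay wholly below the 4 AO values, as did 19.8% of all genes (1.61% lay wholly above). Since the members were selected on this contrast, nothing is read from their share. The median difference was -0.41 over the 6 subunits and -0.25 over all genes. The balance of calls depended on the scaling: 17.0% of the calls were of higher genes as processed here and 66.1% when the scaling used only spots that were valid in every rat (3348 higher, 1718 lower), which moved the median of all genes to 0.15. Without AO3 the calls fell to 914 lower and 257 higher. Because the tissue was bulk, fewer cells of a type and less RNA per cell cannot be told apart in any of these values.

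Of the muscle-type subunits, Chrne showed the largest difference of the family. Chrne encodes the epsilon subunit, which replaces gamma in the receptor of mature muscle. Its level was 2.37 in AO1, 3.19 in AO2, 3.06 in AO3 and 3.75 in AO4, against -1.35 in AE1, -1.17 in AE2, -1.01 in AE3 and -1.89 in AE4. All 4 AO rats were high and all 4 AE rats low, and the groups were separated by 3.39 between the lowest AO and the highest AE rat. Foreground over background was 37, 129, 44.1 and 262 in AO1 to AO4 and 3.04, 8.21, 3.18 and 4.76 in AE1 to AE4. The AE minus AO difference was -4.45 on the log2 scale (SE 0.29, n = 4 per group), a 21.8-fold lower measured level in AE, or -4.19 beside the all-gene median, with the AE mean resting on 2 rats marked well above background and 2 that were not. In the list of all genes ordered from the largest fall, Chrne stood at place 16 of 21332. Within each dye, 2 rats against 2, the difference was -3.9 in Cy3 and -5 in Cy5. Under the 6 other ways of scaling and correcting the signal it ranged from -4.82 to -3, and in the 8 fits that left out 1 rat from -4.69 to -4.24. These ranges describe the same 8 rats from which the gene was chosen. The reading rests on 1 spot of 1 probe, and whether the signal in the AO rats came from Chrne mRNA or from an overlapping transcript cannot be told from it.

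The other muscle-type subunits gave little signal. Chrna1, the ligand-binding alpha subunit of muscle, had foreground over background of 2.15 to 2.7 in the AO rats and 1.45 to 2.5 in the AE rats. Chrnb1, the muscle beta subunit, ranged from 1.73 to 2.08 in AO and from 1.64 to 3.54 in AE, and Chrnd, the delta subunit, from 1.36 to 2.49 in AO and from 1.57 to 1.91 in AE. For Chrnb1 and Chrnd both groups were below the detection mark and no difference is given, and for Chrna1, marked in AE2 alone, the lower bound on a fold was under 1. The gamma subunit Chrng is not among the 10 genes, and was marked well above background in the 4 AO rats and in AE2 and AE4. Its level was -0.8, -1.98, 0.24 and -0.85 in AO1 to AO4 and -2.15, -1.9, -1.53 and -2.98 in AE1 to AE4, so that the groups overlapped at AO2. The difference was -1.29 (SE 0.35, limma adjusted p = 0.021), but it passed the threshold under 1 of the 6 scalings (differences of -1.84 to -0.4), and it missed the threshold without AO3 (-1.08, adjusted p = 0.115), without AO4 (-1.18, adjusted p = 0.0758) and without AE1 (-1.09, adjusted p = 0.0874). The epsilon and gamma subunits were thus the members of the muscle set with measurable signal in oil-treated rats, while alpha1, beta1 and delta, which are needed beside them in the muscle receptor, were not marked in any AO rat.

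Markers of muscle were read beside Chrne. Of 8 skeletal muscle genes on the array, Tnni2 and Mylpf were well above background in all 8 rats, and Ckm, Myog and Myod1 in none. In all 5 were quantified, Myog among them, and 0 passed the threshold in either direction. Their summed level ranged from 2.31 to 4.49 in AO and from 2.24 to 3.84 in AE, in units of the median spot. Rapsn, Musk and Dok7, which gather the muscle receptor beneath the nerve ending, were not marked in any rat. Of the 10 genes listed for that clustering 7 were quantified, with a list median of -0.58. Lrp4 (the agrin receptor), Dok1 and Nrg1 were lower in AE, as were 28.3% of all genes. Lrp4 (-0.55) passed under 0 of the 6 scalings and in 4 of the 8 fits without 1 rat. Dok1 (-0.86), marked in 2 AO rats and 1 AE rat, passed under 1 scaling. Nrg1, a neuregulin that is also widely expressed in brain, had levels of 1.28, 1.71, 1 and 1.61 in AO1 to AO4 and -1.53, -0.52, -0.66 and -2.04 in AE1 to AE4. It was lower by -2.59 (SE 0.33, limma adjusted p = 0.00352) and passed the threshold under all 6 scalings and in all 8 fits without 1 rat.

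The genes next to Chrne were also read where the array measured them. In the RefSeq annotation of assembly GRCr8, Mink1 adjoins Chrne, and C10h17orf107 and Gp1ba overlap it. Mink1, a kinase gene, had mean log2 levels of 1.3 in AO and 1.48 in AE, with a difference of 0.18 (SE 0.31, limma adjusted p = 0.679). Slc25a11, the mitochondrial oxoglutarate carrier on the other side, had a difference of 0.35 (SE 0.17, limma adjusted p = 0.144), and neither of the overlapping genes had a value in the fit.

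The sequence before the Chrne start is shown because promoters of muscle receptor genes are known for an N-box, bound by Ets factors at the synapse, and for E-boxes, bound by myogenic factors. The 250 bases before the start on GRCr8 (RefSeq; minus strand, chr10:55834155-55834404) are given with the N-box (CCGGAA) and the E-box (CANNTG) in capitals.
Chrne, 250 bases before the start: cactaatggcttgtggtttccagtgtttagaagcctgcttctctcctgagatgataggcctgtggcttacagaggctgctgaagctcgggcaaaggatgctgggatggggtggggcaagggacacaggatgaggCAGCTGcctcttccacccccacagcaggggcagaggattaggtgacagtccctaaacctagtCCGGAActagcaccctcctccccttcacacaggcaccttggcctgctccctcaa
Both strands were searched, and 1 N-box stood at -54 and 1 E-box at -116, counted from the start. An N-box stood in the same window of 12.6% of 33469 promoters and an E-box in 65.5%, so the latter is common. Of the 10 genes, Chrnd alone also held an N-box in this window. Neither the AP-1 motif TGANTCA, held by 6.34% of promoters, nor the full palindrome of the estrogen response element, held by 0.0239%, occurred in the Chrne window, which says only that these letters are absent there.

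**Figure D2:**
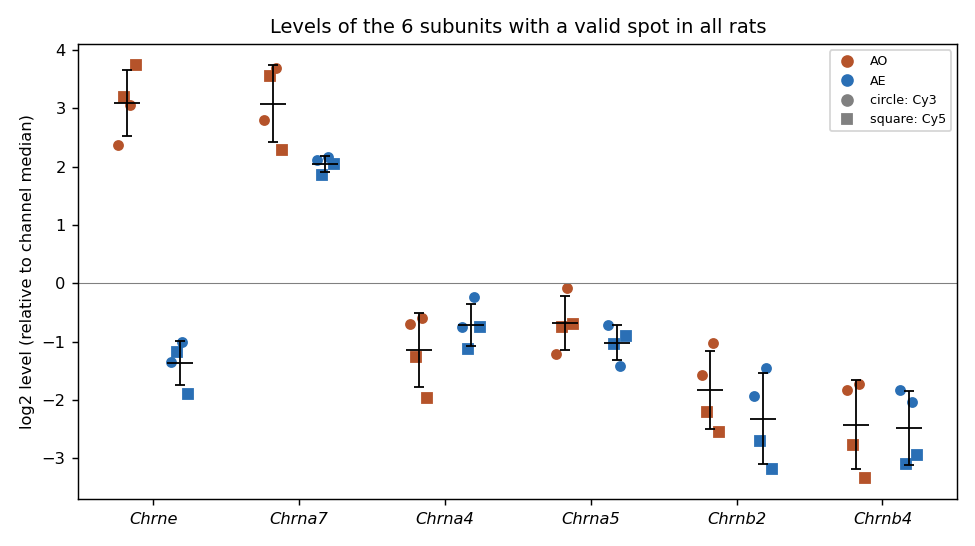
Log2 level (0 is the median valid spot of the array and dye) of the 6 quantified subunits in the 4 AO and 4 AE rats; circles are Cy3 rats, squares Cy5 rats, and bars are mean ± SD. The groups are far apart for Chrne (3.09 ± 0.57 against -1.36 ± 0.38), just apart for Chrna7 and overlap for the other 4; heights are not compared between genes.

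Chrna7 was the subunit with the most spots, and its probes did not give the same reading. The alpha7 subunit forms homomeric channels with high permeability to calcium. Averaged over its spots valid in all rats (9 of the 3′ probe and 1 of the middle probe), its level was 2.8 in AO1, 3.56 in AO2, 3.69 in AO3 and 2.28 in AO4, against 2.11, 1.86, 2.17 and 2.05 in AE1 to AE4. The AE rats were low and close together, AO2 and AO3 were high, and AO4 lay 0.11 above the highest AE rat. The difference was -1.04 (SE 0.29, n = 4 per group), a 2.05-fold lower level in AE, or -0.78 beside the all-gene median. It was -1.1 in Cy3 and -0.97 in Cy5. Its direction held under each of the 6 scalings (-1.1 to -0.61), but it lay past the threshold in 1 of them and missed it without AO2 (-0.8), without AO3 (-0.8) or without AE1 (-1.01).

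That difference came from 1 of the 3 Chrna7 probes. The 3′ probe, printed 10 times on the array, lies on the minus strand at chr1:117533550-117533615 on rn4. A middle probe with 1 spot lies 53.5 kb from it at chr1:117587067-117587126, and the 5′ probe, with 1 spot across an intron, a further 61.3 kb away at chr1:117648428-117659293. RefSeq gives the gene a length of 125.8 kb on GRCr8. The array design took the 3 probes from different transcript records, at position 2027 for the 3′ probe, 2049 for the middle probe and 207 for the 5′ probe. The middle probe thus has the later position in its record though it lies upstream of the 3′ probe, and whether the probes report the same transcript was not tested. The 3′ probe was well above background in all 8 rats, the middle probe in AO2, AE2 and AE4, and the 5′ probe in none. At the 3′ probe the mean level was 3.23 ± 0.66 (SD, n = 4) in AO and 2.19 ± 0.13 in AE, a difference of -1.04 (SE 0.29). At the middle probe it was -2.07 ± 0.74 in AO and -1.9 ± 0.56 in AE, a difference of 0.17 (SE 0.2), with the groups overlapping. Foreground over background at the 5′ probe was 1.6 to 2.03 in AO and 1.55 to 2.51 in AE, so that no difference can be given there. The lower level in AE was thus read at the 3′ probe, while the middle probe, 3.02 to 4.55 times its background, gave a difference of the opposite sign within its SE. The 10 repeated spots of the 3′ probe agreed within an SD of 0.14 to 0.29 in 7 rats, and in AE3 the SD was 0.67 because 1 spot read 0.24 against a median of 2.3. That spot fell below the validity limit in AE3 and was left out for all rats.

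**Figure D3:**
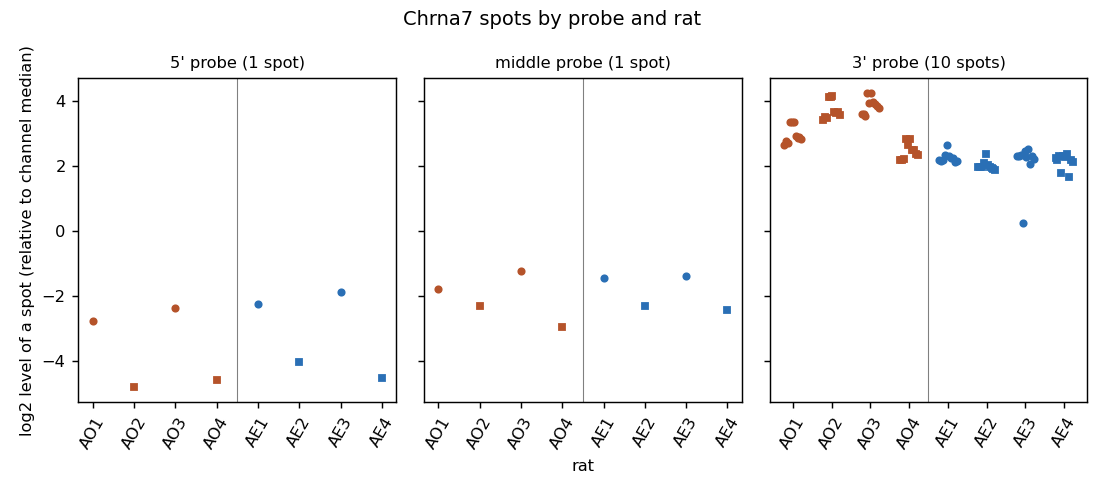
Log2 level (0 is the median valid spot of the array and dye) of every Chrna7 spot in each rat, by probe; circles are Cy3 rats, squares Cy5 rats, and the vertical line parts AO from AE. By its mean over valid spots the 3′ probe lies lower in every AE rat (2 to 2.31) than in any AO rat (2.43 to 3.84), single spots of AO4 overlap those of all 4 AE rats, and 1 of its spots in AE3 reads 0.24.

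A probe with no gene symbol lies between the middle and the 3′ probes of Chrna7 on the same strand (chr1:117584148-117584207 on rn4), and was singled out after its values were seen. Its design name is TC595121, and it was well above background in all 8 rats. Its level was 2.66, 2.52, 3.05 and 2.24 in AO1 to AO4 and 3.74, 3.09, 4.35 and 4.02 in AE1 to AE4, all AE rats lying above all AO rats. The difference was 1.18 (SE 0.24), opposite in sign to that of the Chrna7 3′ probe, and it lay past the threshold under all 6 scalings and in all 8 fits without 1 rat. These fits describe the same values by which the probe was singled out, and nothing further is read from them.

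Among 13692 other genes well above background in all 8 rats, the 3 whose levels followed Chrna7 most closely over the 8 rats had Pearson r of 0.979, 0.969 and 0.968. The third of them was RGD1560648, and the others were probes with no gene symbol. These points share arrays, dyes and scaling, and the values describe the likeness of pattern only. Of 7 quantified markers of GABA neurons, the cells best known for alpha7 in this region, 3 were lower in AE, the neuropeptide genes Sst (-1.56, SE 0.31, limma adjusted p = 0.0065), Npy (-1.84, SE 0.38, adjusted p = 0.0073) and Vip (-1.06, SE 0.24, adjusted p = 0.0106). The other 4 did not pass: the difference was -0.57 for Gad1 (adjusted p = 0.0603), -0.58 for Gad2 (adjusted p = 0.0956), -0.33 for Slc32a1 (adjusted p = 0.296) and, with the opposite sign, 0.51 for Pvalb (adjusted p = 0.0724). Over all genes, 28.3% were called lower in AE. AE2 stood above the other AE rats for Npy (7.2, against 4.9 to 5.59) and Sst (6.89, against 5.35 to 6.05), but not for Vip. The 7 were read only as processed here, and their summed level, to which Npy and Sst gave the most, was 361 to 569 in AO and 119 to 319 in AE. The part of these genes in the Chrna7 result was not tested.

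Chrna4, which binds acetylcholine together with beta2, was the subunit of the brain heteromer with the clearest signal. Its level was -0.7, -1.27, -0.6 and -1.97 in AO1 to AO4 and -0.75, -1.12, -0.24 and -0.74 in AE1 to AE4. The groups overlapped, AO4 being the lowest rat and AE3 the highest. The difference was 0.42 (SE 0.22), or 0.68 beside the all-gene median, below the threshold. It kept its sign under all 6 scalings (0.2 to 0.82) and lay past the threshold as higher in AE in 4 of them: loess with Aquantile, quantile, the spots valid in all rats, and the deposited log2 table. In those 4 the median of all genes was 0.04 to 0.15, against -0.25 as processed here. Chrna4 passed in 0 of the 8 fits without 1 rat. All these settings describe the same 8 rats from which the gene was chosen. Its difference was 0.16 in Cy3 and 0.69 in Cy5.

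Chrnb2, the structural partner of alpha4, was marked in 1 rat of each group. Its level was -1.57, -2.2, -1.03 and -2.54 in AO1 to AO4 and -1.93, -2.71, -1.45 and -3.18 in AE1 to AE4. Within each dye both AE rats lay below at least 1 AO rat, and over all rats the groups overlapped. The difference was -0.49 (SE 0.21), or -0.23 beside the all-gene median, and the rats read with Cy5 were lower by -1.16 (SE 0.21) than those read with Cy3, more than the rats of the 2 groups differed. It missed the threshold as processed here and lay past it with the replicate number as a block (SE 0.15) and without AE3 (-0.56), while it shrank to between -0.12 and -0.06 under loess, quantile, the spots valid in all rats and the deposited table.

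Chrna5, the accessory subunit that joins alpha4 and beta2 or alpha3 and beta4, was marked in 5 rats. Its level was -1.21, -0.74, -0.08 and -0.69 in AO1 to AO4 and -0.71, -1.04, -1.41 and -0.91 in AE1 to AE4. AO3 was the highest and AE3 the lowest, and the groups overlapped. The difference was -0.34 (SE 0.26), or -0.08 beside the all-gene median, and its sign turned under the scaling over spots valid in all rats (0.06) and in the deposited table (0.08).

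Its neighbours on chromosome 8, Chrna3 and Chrnb4, which form the ganglionic receptor, were not marked in any AO rat. Chrnb4 read 2.47 to 3.88 times background in AO and 2.65 to 2.99 times in AE. Chrna3 read 2.74 to 4.16 times in AO and 1.96 to 3.27 times in AE, falling below the validity limit in AE1. For both, the lower bound on a fold between the groups was under 1, so no difference is given. The medial habenula, where these subunits are most abundant in brain, borders the hippocampus: the summed level of 5 of its quantified marker genes was 24.3 to 37.8 in AO and 20.7 to 38.1 in AE, with Slc17a6 lower (-1.6, limma adjusted p = 0.00527) and Gng8 higher (0.88, adjusted p = 0.0097) in AE, and Gpr151 was not marked in any rat. The ganglionic pair thus stayed within 4.16 times background in every rat of both groups.

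**Figure D4:**
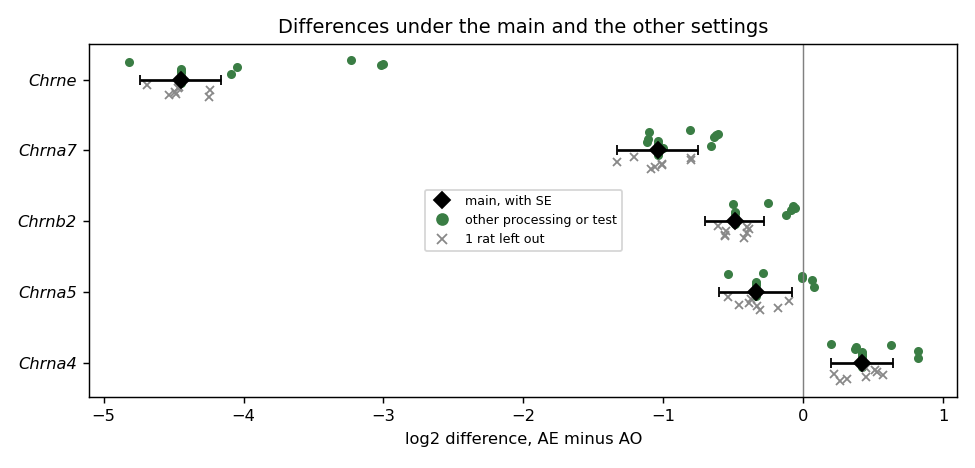
Log2 difference, AE minus AO, of the 5 subunits marked well above background in at least 1 rat of each group; diamonds with bars are the values of the report with their SE, green points the other processing settings or tests, and crosses the fits without 1 rat. Chrne stays between -4.82 and -3, Chrna7 between -1.33 and -0.61, Chrna4 stays above 0, and Chrna5 crosses 0.

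Of the nicotinic genes outside the 10, Chrna6, Chrna9, Chrna10 and Chrnb3 were not marked in any rat. Chrna2 was marked in AE3 and AE4, with foreground over background of 2.28 to 3.09 in AO and 1.76 to 11.7 in AE, where AE3 stood far above the other rats. It had no spot valid in all 8 rats, and the lower bound on its fold was under 1.

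Genes that assemble or modulate nicotinic receptors were better detected than the subunits. Of 15 on the array, 14 were quantified and 11 were well above background in all 8 rats. In AE, 3 of them were higher, Lynx1 (0.57, SE 0.19, limma adjusted p = 0.0454), Ly6e (0.76, SE 0.21, adjusted p = 0.0209) and Ppp3ca (0.78, SE 0.19, adjusted p = 0.0134), and 1 was lower, Unc50 (-0.65, SE 0.16, adjusted p = 0.0151). Lynx1 and Ly6e encode membrane proteins of the Ly6 family, of which Lynx1 binds nicotinic receptors, Ppp3ca is the catalytic subunit of calcineurin, and Unc50 is a Golgi protein needed for receptor trafficking. Over all genes, 5.8% were called higher and 28.3% lower. In the 8 fits without 1 rat, Lynx1 was kept in 1, Ly6e and Ppp3ca in 4 and Unc50 in 6. The list median was 0.35 against -0.25 for all genes. Tmem35, the chaperone NACHO needed for alpha7 assembly, had means of 5.92 ± 0.3 in AO and 5.66 ± 0.13 in AE and did not pass the test (difference -0.25, SE 0.18, adjusted p = 0.296), with the sign turning under 4 of the 6 scalings.

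Genes that make, carry and break down acetylcholine were 9 on the array, of which 8 were quantified. Slc18a3, the vesicular acetylcholine transporter, was 2.88, 2.84, 3.24 and 2.88 in AO1 to AO4 and -0.45, 1.98, -0.16 and -1 in AE1 to AE4, AE2 standing above the other AE rats. It was lower in AE by -2.87 (SE 0.52, limma adjusted p = 0.00529), past the threshold under all 6 scalings, and missed it without AO3 (-2.69, adjusted p = 0.0555). Slc5a7, the choline transporter, was lower by -0.92 (SE 0.28, adjusted p = 0.0303), as were Slc44a1 (-0.82) and Chka (-1.23). Each of them passed under only 1 of the 6 scalings. Slc5a7 was marked in 3 AO rats and 2 AE rats, and Chka in 3 AO rats and 1 AE rat. Ache, which breaks down acetylcholine, was higher by 0.69 (SE 0.22, adjusted p = 0.0367). Chat, the enzyme of synthesis, was not marked in any rat. Over all genes, 28.3% were called lower and 5.8% higher. The list median was -0.52. The summed level of 3 quantified markers of basal forebrain cholinergic neurons (Slc18a3, Slc5a7 and Ngfr) was 9.46 to 12 in AO and 1.23 to 5.26 in AE, all 3 being lower, while Chat and Lhx8 were not marked. Slc18a3 gave the most to this sum in AO, and it and Slc5a7 are the genes given above, so the sum is no separate reading. Ngfr was lower by -2.08 (SE 0.44, limma adjusted p = 0.00816) and was read only as processed here.

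Of 5 muscarinic receptors 3 were quantified, and Chrm4 was higher in AE by 0.99 (SE 0.24, limma adjusted p = 0.0138), a call lost without AO3 (1.06, adjusted p = 0.058). Of 6 related cys-loop receptor genes 4 were quantified and Glra2, the glycine receptor alpha2 subunit, was higher by 0.64 (SE 0.2, adjusted p = 0.0313). Among 12 genes of signalling downstream of alpha7, 11 were quantified: Camk2a was higher, and Jak2, Stat3, Pik3ca, Pik3cb and Creb1 were lower. Stat3, which relays alpha7 signals in immune cells, fell by 2.1 on the log2 scale (SE 0.37, adjusted p = 0.00501), a call lost without AO3 (-1.97, adjusted p = 0.0539). Its level in AE2 (3.95) stood above those of the other AE rats (1.96 to 2.52). Over the 48 quantified genes of these lists 7 were higher and 14 lower, beside 5.8% and 28.3% of all genes. As processed here, the lower calls came at about the rate of the whole array and the higher calls above it, which was not tested. When scaled over the spots valid in every rat, the whole array gave 3348 higher and 1718 lower. Nrg1, Slc18a3 and Stat3 passed under all 6 scalings, and each of the other 18 was lost under at least 1 scaling and without at least 1 rat. Lrp4 passed under 0 scalings, and Slc5a7, Slc44a1, Chka, Dok1, Pik3ca, Pik3cb and Chrng under 1. The rest passed under 3 to 5, but Lynx1 was kept in only 1 and Ache in only 2 of the 8 fits without 1 rat.

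**Figure D5:**
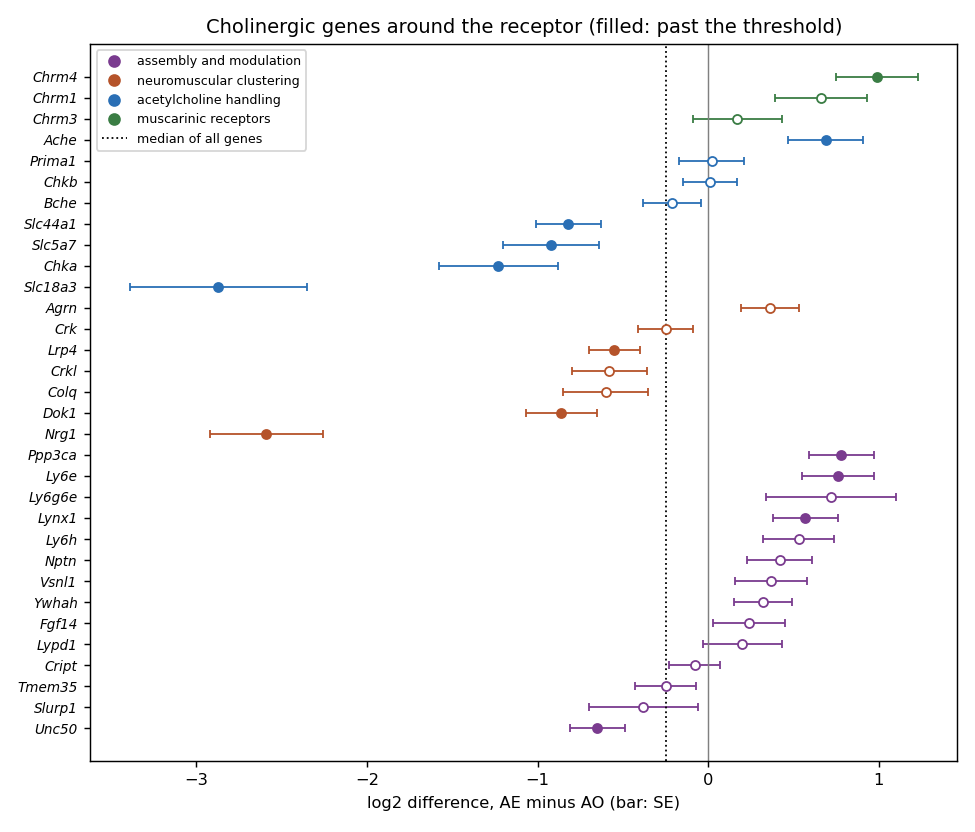
Log2 difference, AE minus AO, with its SE for the quantified genes of receptor assembly and modulation, neuromuscular clustering, acetylcholine handling and muscarinic receptors; filled points passed the threshold of the fit over all genes, and the dotted line is the median of all genes (-0.25). Slc18a3 (-2.87) and Nrg1 (-2.59) lie farthest below it, and Lynx1, Ly6e, Ppp3ca, Ache and Chrm4 lie above 0.

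The labelled tissue was checked against markers. Of 8 dentate granule neuron genes C1ql2, C1ql3, Calb1 and Neurod1 were well above background in all 8 rats, while Prox1 and Tdo2 were not marked in any. In AE, 3 of the 7 quantified were lower, beside 28.3% of all genes. These were C1ql2 (-1.23, limma adjusted p = 0.0104), Dsp (-1.24, adjusted p = 0.00701) and the unmarked Tdo2 (-0.57, adjusted p = 0.0426), and Neurod1 was higher (1.16, adjusted p = 0.00516). Of 6 CA pyramidal genes 5 were quantified and 4 were higher in AE, beside 5.8% of all genes. Among the 4 were Pou3f1 (2.23, adjusted p = 0.00342) and Fibcd1 (0.99), which was marked in 0 AO rats and 2 AE rats. Spink8 was lower, and the summed level was 11.3 to 17.2 in AO and 20.4 to 39.7 in AE. Their part in the subunit differences was not tested. Between 32381 and 38553 of 43379 non-control spots were valid in the AO rats and between 30690 and 35352 in the AE rats.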

How the data were processed

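Total RNA of the dentate gyrus was hybridised to 4 Agilent rat arrays on 1 slide, with 2 differently labelled rats of the same group per array. The deposited files hold spot intensity and background from Agilent Feature Extraction 10.7.3.1, and a deposited table holds log2 values (median 0 in each column) that equalled the background-subtracted median signal of the spot minus a constant per column, within 0.01 for 100% of the values listed. Intensities were filtered and scaled after the study's methods, without their further in-house renormalization across dyes and conditions: a spot was valid when its mean foreground was at least 2 times the background median, and the background-subtracted signal was divided by the median over valid spots of the same array and dye and averaged over the spots of a gene name valid in all 8 rats. No pseudocount was used. The log2 levels were fitted in limma 3.58.1 (R 4.3.3) with dye as a fixed term and array as a random block (correlation -0.01), with Benjamini-Hochberg adjustment over all 21332 genes and a threshold of 0.05. The fit was tested on simulated data. With each array holding 1 group, array and slide position were modelled only as this block, and 4 rats per group limit the precision. Labels name separate replicates but no litters or batches. Same-numbered rats correlated (0.21 to 0.34) in their deviations from the group means, and no longer did (-0.06 to -0.04) once the mean of each group and dye was removed. Each such mean covers 2 rats, so these values cannot tell whether the numbers shared anything beside the dye. The members, gene lists and tests were chosen with earlier results of these data known. Named genes were the 10 subunits, the other nicotinic genes, and list genes past the threshold or named by detection. A group with no rat marked well above background was given only a bound: the other group's mean over the mean of the higher of its own signal and the dimmest marked spot of each channel. Scanner files were used for every value but the alternative from the deposited table. Probe sequences were read from the scanner files, the promoter from RefSeq. Other settings changed background correction, scaling, spot filter, probe summary, model terms and test, or left out each rat.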

Additional observations from a re-analysis of the deposited data

How the results depend on the processing

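Genes higher and lower in AE numbered 1238 and 6038 as reported, 125 and 461 with normexp, 3323 and 2225 with loess and Aquantile, 3367 and 2485 with quantile normalization, 3348 and 1718 when scaled only over spots valid in every rat (common-spot scaling), 403 and 2679 with no filter on valid spots, and 3275 and 1927 in the deposited table. Leaving out 1 rat gave 257 to 1855 higher and 914 to 7012 lower, the fewest without AO3; without AO1 they were 511 and 3634, without AO4 532 and 5016, without AE1 525 and 2463, and without AO2 3979 were lower. The unequal-variance test of the methods, with Benjamini-Hochberg adjustment, called 0 and 0, against 772 and 5331 at an unadjusted p under the methods' threshold, Chrna7 and Chrne among them. Of the subunits, 2 were lower as reported, 1 (Chrne) with normexp, loess, quantile, common-spot scaling, no filter and the deposited table, 1 (Chrna7) under the filter that asks for the well-above-background mark in each rat, and 0 by the methods' test; without 1 rat, 1 to 3 were lower and 0 higher. Chrna4 made 1 higher with loess, quantile, common-spot scaling and the deposited table, and 0 were higher otherwise. Chrna5 turned sign to 0.06 and 0.08 under the last 2 of these. Genes of the pathway lists past the threshold numbered 21 as reported, 3 with normexp, 4 with no filter, 0 by the methods' test and 1 to 27 without 1 rat. With the replicate block in place of the dye term 1076 genes were higher and 6131 lower, and 3 subunits were lower, Chrnb2 (-0.49) joining Chrne and Chrna7; it changed no other call among the subunits. Common-spot scaling kept the same spots and fit and changed only the divisor of each array and dye, so every difference moved by the same amount. Chrne went from -4.45 to -4.05, Chrna7 from -1.04 to -0.64 and the median of all genes from -0.25 to 0.15. The cause of the other shifts was not tested. Signals within a few times background limit Chrnb2 and Chrnb4, which the filter at 3 times background removes, and Chrna3, Chrna1, Chrnb1 and Chrnd, which were not quantified at 2 times.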
